A study of Mus musculus with 3 samples.

Results

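Macrophage transcription factors are described here as 9 genes, Maf, Bhlhe40, Bhlhe41, Spi1, Cebpa, Cebpb, Nr1h3, Spic and Zeb2, out of the 32886 genes of a single-cell table of kidney immune cells. The members were chosen by name, from a list drawn up with earlier results of these data known. Every call of a member between compartments is therefore a description. Bhlhe41 in particular had already been seen to stand higher in medullary macrophages. Its values across compartments are given as a description and support nothing on their own. The cells were living CD45-sorted immune cells of 3 kidney compartments, which were the cortex, the medulla's outer part (OM) and its inner part (IM), from untouched, wild-type male C57BL/6J mice aged 10 weeks, whose kidneys were perfused, dissected by hand and digested with collagenase and DNase. The mice were housed and the cells sequenced at 3 sites, called Facilities here (Aachen, Bonn and Hamburg), with an older droplet chemistry in Aachen than in Bonn and Hamburg. The table holds 20266 cells, and the cells of 1 compartment from 1 Facility were treated as 1 library, which gave 9 libraries with the Facility as replicate (n = 3 for each compartment). The sources used here do not say how many mice each library pools, so every p-value measures the spread between these libraries only.

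Macrophages are built by a small set of DNA-binding factors. PU.1 (encoded by Spi1) opens macrophage enhancers together with C/EBP factors (Cebpa, Cebpb), whereas factors of more restricted use set the identity of each tissue: MAF holds macrophages in a differentiated, non-dividing state, ZEB2 is a repressor needed to keep tissue-specific programmes, LXRα (Nr1h3) senses oxysterols and drives cholesterol export, SPI-C (Spic) is the factor of iron-recycling macrophages of the spleen, and BHLHE40 and BHLHE41 are related E-box repressors tied to macrophage self-renewal and to cytokine control in lymphocytes. In the kidney, resident macrophages lie between the tubules throughout the cortex and the medulla.

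For 2 members whose level depended on the cluster or the Facility, the DNA just before the start of transcription is shown with the letters that resemble binding sites of the listed factors. Windows of 250 bases before each start came from RefSeq (GRCm38.p6), where 6 of the 9 members had an entry, in 10 windows. The searched letters, on either strand, were CACGTG (E-box of BHLHE40 and BHLHE41), CACCTG (E2-box of ZEB2), TGCTGA (part of a MAF recognition element), GAGGAA (core of PU.1 and SPI-C), TTGCGCAA (C/EBP palindrome) and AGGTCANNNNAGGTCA (LXR direct repeat). None of these letter strings overlapped another in the windows printed. Capitals mark the matches, and the Bhlhe41 stretch, on the minus strand at chr6:145865559-145865670, leaves out bases that the annotation assigns to an exon.
Bhlhe41: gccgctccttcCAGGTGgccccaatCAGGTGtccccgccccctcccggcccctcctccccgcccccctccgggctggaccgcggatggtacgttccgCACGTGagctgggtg
Spic: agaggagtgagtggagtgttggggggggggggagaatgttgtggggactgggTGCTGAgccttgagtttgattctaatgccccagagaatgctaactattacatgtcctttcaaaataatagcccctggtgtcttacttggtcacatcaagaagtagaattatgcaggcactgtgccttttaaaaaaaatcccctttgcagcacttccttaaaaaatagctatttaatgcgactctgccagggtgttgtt
The Spic window lies on the minus strand at chr10:88683024-88683273, inside the span of the gene in the GENCODE annotation and outside its exons. Bhlhe41, whose product binds the E-box, held 1 E-box from 153 to 148 bases before its start, a string found in 6.02% of 32851 windows. It also held CACCTG at 239 to 234 and at 225 to 220 bases before the start, a string found in 17.2% of windows and in 1 Nr1h3 window. Spic held TGCTGA at 198 to 193 bases before its start, as did 16.1% of windows. GAGGAA was found in Zeb2 windows and in 23.3% of all windows. The C/EBP palindrome (0.164% of windows) and the LXR repeat (0.0152%) were in no window of a member. These matches describe letters only.

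Counts over all cells ranged widely between the members. Cebpb had 29692 UMIs (unique molecular identifiers, each standing for 1 captured transcript), Spi1 16212, Zeb2 13981, Bhlhe40 12550 and Maf 6765, against 1890 for Cebpa, 521 for Spic, 358 for Bhlhe41 and 105 for Nr1h3. The last 3 therefore rest on few molecules. Each library held 2122809 to 15267126 UMIs, and the median cell held 887 UMIs in Aachen, 3290.5 in Bonn and 2943.92 in Hamburg. At most 16 cell barcodes were shared by any of the 36 pairs of libraries. The class of resident macrophages joined Macrophage_1, Macrophage_2, Macrophage_3 and Isg+_Macrophage, as the table names its clusters, with 168 to 1952 cells and 678410 to 3743529 UMIs in a library. A list of 9 resident macrophage markers (C1qa, Csf1r, Adgre1 and others), fixed for this check, summed to 179 to 265 UMIs per 10000 in these libraries. The same list reached a median of 207 in Macrophage_1, 248 in Macrophage_2, 236 in Macrophage_3, 202 in Isg+_Macrophage and 149 in Malat+_Macrophage. It reached 52.7 in Neutrophils (17.75 to 77.1 over the Facilities), 30.0 in Monocyte, 12.4 in cDC2 and 9.01 in cDC1. The monocyte markers reached 51.1 per 10000 in Monocyte, the neutrophil markers 787 in Neutrophils, the cDC2 markers 23.4 in cDC2 and the cDC1 markers 14.0 in cDC1, in each case more than in any other myeloid cluster with cells in 3 Facilities.

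The members differed in where they were found among the myeloid clusters, whose levels are given as CPM (UMIs of a gene per 1000000 UMIs of all genes) over cells summed per cluster and Facility. Since the clusters were made from the same cells, no test was made between them. The orders cover the 9 myeloid clusters with at least 20 cells in each Facility and leave out plasmacytoid dendritic cells (pDC), which had them in 2 Facilities only. Spi1 was spread over the myeloid clusters, Maf and Bhlhe41 stood highest in macrophages, Cebpb and Spi1 in neutrophils and monocytes, and Bhlhe40 in conventional dendritic cells of type 2 (cDC2).

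**Figure D1:**
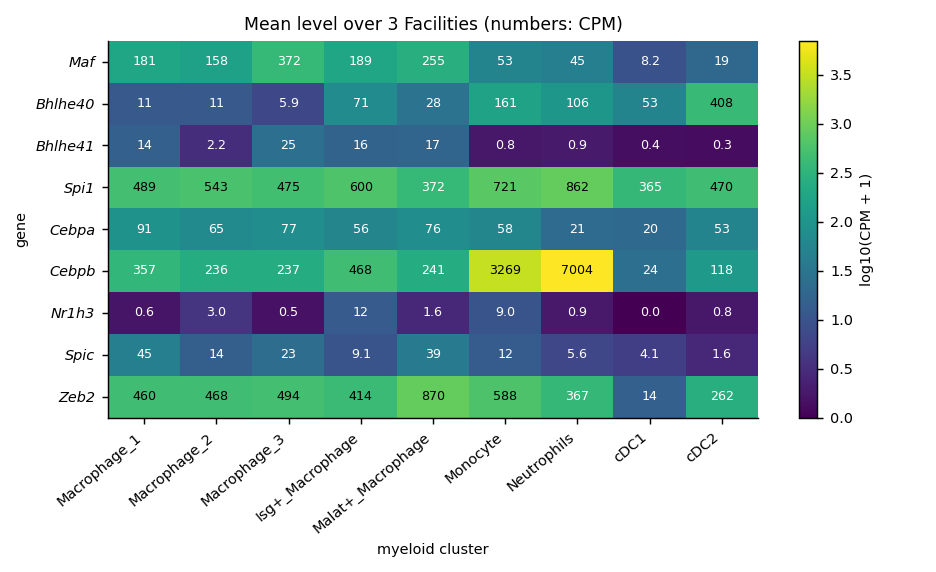
Mean level of the 9 transcription factors (rows) in the myeloid clusters (columns), as CPM of cells summed per cluster and Facility and averaged over 3 Facilities; the shade follows log10(CPM + 1) and each cell prints the mean CPM. Maf is highest in Macrophage_3 (372), Cebpb in Neutrophils (7004), Bhlhe40 in cDC2 (408) and Bhlhe41 in Macrophage_3 (24.6).

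Spi1 was found in each of the myeloid clusters. It stood at 862 ± 55.5 CPM (SD, n = 3 Facilities) in Neutrophils, 721 ± 56.0 in Monocyte, 543 ± 58.9 in Macrophage_2, 489 ± 131 in Macrophage_1, 475 ± 114 in Macrophage_3, 470.2 ± 70.0 in cDC2 and 365 ± 63.0 in cDC1. Neutrophils, Monocyte and Isg+_Macrophage (600 ± 60.3) followed each other without overlap of their 3 Facilities, whereas no lower pair of neighbours down to cDC1 was apart. In pDC it stood at 116 CPM (Bonn 124, Hamburg 108). Outside the myeloid clusters Spi1 stood at 116 CPM in B_cell_1 and 18.4 in T_cell_1. After every cell had been thinned to 500 UMIs, 21.03% of Macrophage_1 cells and 0.549% of T_cell_1 cells held a Spi1 UMI; unthinned, these shares were 67.2% and 2.33%, at median depths by Facility of 935.5 to 5622 UMIs in Macrophage_1 and 973 to 3395.92 in all T cells.

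Maf was a gene of the macrophage clusters among myeloid cells. Its level was 372 ± 73.9 CPM in Macrophage_3, 255 ± 88.8 in Malat+_Macrophage, 189 ± 90.7 in Isg+_Macrophage, 181 ± 76.3 in Macrophage_1 and 158 ± 23.9 in Macrophage_2. Then came 52.6 ± 20.1 in Monocyte, 45.0 ± 47 in Neutrophils, 18.6 ± 14.6 in cDC2 and 8.24 ± 3.90 in cDC1. Macrophage_3 came first in each Facility, with 388 CPM in Aachen, 437 in Bonn and 292 in Hamburg, and the step from Macrophage_2 to Monocyte was the only one in the order without overlap. After thinning, 7.75% of Macrophage_1 cells held a Maf UMI and no cDC1 cell did (36.6% and 4.59% unthinned). Maf was not restricted to macrophages: it reached 244 ± 34.3 CPM in T_cell_1 and 422 ± 154 CPM in T_cell_4, and MAF is also known as a factor of T helper cells.

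Zeb2 was high in most myeloid clusters and nearly missing from cDC1. It stood at 870.5 ± 444 CPM in Malat+_Macrophage, 588 ± 47.1 in Monocyte, 494 ± 25.2 in Macrophage_3, 468 ± 18.6 in Macrophage_2, 460.2 ± 40.2 in Macrophage_1, 367 in Neutrophils and 262 in cDC2, against 13.9 ± 5.14 in cDC1. Monocyte and Macrophage_3, Neutrophils and cDC2, and cDC2 and cDC1 did not overlap over the Facilities, and Malat+_Macrophage led only in Bonn and Hamburg. NK_cell_1 also held Zeb2, at 365 ± 157 CPM, whereas T_cell_1 stood at 41.7.

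The C/EBP genes parted ways. Cebpb, the stress- and cytokine-induced member, reached 7004 ± 4491 CPM in Neutrophils and 3269 ± 1283 in Monocyte, and only 357 ± 221 in Macrophage_1, 237 ± 147 in Macrophage_3, 236 ± 202 in Macrophage_2, 118 ± 70.8 in cDC2 and 24.1 ± 21.5 in cDC1. Neutrophils came before Monocyte in each Facility, but the Facilities' ranges overlapped. The Neutrophils value was 11850 CPM in Aachen, from 25 cells with a median of 485 UMIs, against 2989 in Bonn and 6169 in Hamburg. Cebpa, needed to form granulocyte-monocyte progenitors, was lower and flatter, with 90.9 ± 33.6 CPM in Macrophage_1, 76.8 ± 35.1 in Macrophage_3, 65.0 ± 4.07 in Macrophage_2, 57.6 ± 23.5 in Monocyte and 21.04 ± 23.0 in Neutrophils, and no neighbours in its order were apart. Cebpa was all but missing from T_cell_1 (1.59 CPM).

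The E-box repressors stood in different cells. Bhlhe40 led in cDC2 (408 ± 409 CPM) in each Facility and stood at 161 ± 158 in Monocyte, 53.4 ± 68.8 in cDC1 and 10.9 ± 10.8, 10.9 ± 8.87 and 5.93 ± 4.68 in Macrophage_1, Macrophage_2 and Macrophage_3. NK_cell_1 (419.7 ± 499.7 CPM) and T_cell_1 (405 CPM) were as high as cDC2. Bhlhe41 ran the other way, with 24.6 ± 12.6 CPM in Macrophage_3, 17.0 ± 7.79 in Malat+_Macrophage, 15.8 ± 20.2 in Isg+_Macrophage and 13.9 ± 8.60 in Macrophage_1, against 2.16 ± 1.28 in Macrophage_2, 0.776 in Monocyte and 0.333 in cDC2. Macrophage_1 and Macrophage_2 did not overlap. The highest Bhlhe41 level of any cluster was that of B_cell_2, at 55.7 ± 41.2 CPM.

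Spic and Nr1h3 were rare. Spic stood at 45.4 ± 43.9 CPM in Macrophage_1, 39.1 ± 62.3 in Malat+_Macrophage, 22.5 ± 27.2 in Macrophage_3 and 13.6 ± 9.21 in Macrophage_2, and its first place changed with the Facility, being Macrophage_1 in Aachen and Bonn and Malat+_Macrophage in Hamburg. Nr1h3 reached 11.8 ± 20.4 CPM in Isg+_Macrophage and 8.998 ± 8.50 in Monocyte. It had no UMI in any Aachen myeloid cluster, so its order rests on Bonn and Hamburg alone.

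Whether the factors followed the depth of the kidney was asked by comparing the compartments within resident macrophages, with edgeR's quasi-likelihood test on the summed counts, the Facility as a block and p-values adjusted by Benjamini-Hochberg over all genes tested. The medulla, as the average of its compartments, the OM and the IM were each compared with the cortex, and the OM with the IM. A gene was called at an adjusted p under 0.05. Of the 9 members 8 passed the filter on low counts, and Nr1h3 did not. Bhlhe41 passed it only through the OM and IM libraries. Maf was called in the medulla and in the OM, higher than in cortex, and no member was called in the IM or between OM and IM. Since all members were chosen with earlier results of these data known, the Maf call too is a description. Bhlhe41 also fell under the threshold for the medulla and the OM, but since it was chosen with that difference known and entered through the libraries where it is high, nothing is read from this. Over all 8687 genes the background was 1.24% called for the medulla, 0.852% for the OM, 0.196% for the IM and 0% for OM against IM, where 267 genes had an unadjusted p under 0.05. The levels in this and the following comparisons are CPM scaled by TMM over the genes tested and therefore differ from the plain CPM of the clusters. In sums over cells, more cells with a transcript and more transcript per cell cannot be told apart.

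Maf was higher in the medulla of each Facility. In Aachen it stood at 128, 401 and 153 CPM in cortex, OM and IM (75, 532 and 82 UMIs), in Bonn at 152, 338 and 261 (558, 383 and 1139 UMIs), and in Hamburg at 103, 166 and 137 (98.9, 287 and 139 estimated UMIs). The OM libraries all lay above the cortex libraries, the IM libraries overlapped with both, and within each Facility the order was OM, IM, cortex. The log2 fold change was 0.86 ± 0.18 (SE, 95% interval 0.48 to 1.24, edgeR adjusted p = 0.0295) for the medulla, a 1.82-fold higher level, and 1.19 ± 0.20 (0.77 to 1.61, adjusted p = 0.0176) for the OM, a 2.28-fold higher level. For the IM it was 0.53 ± 0.20 (0.11 to 0.96, edgeR adjusted p = 0.494) and for OM against IM 0.66 ± 0.19 (0.25 to 1.07, unadjusted p = 0.00384), both short of a call.

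The Maf estimate was above 0 in each of the 24 alternatives tried for the medulla (0.58 to 1.0) and in each of the 24 for the OM (0.81 to 1.40), but the call was easily lost. For the medulla it ended without the Bonn Facility (0.78, edgeR adjusted p = 0.11), without the Hamburg Facility (0.98, adjusted p = 0.172), and without 1 of the Aachen cortex (0.78, adjusted p = 0.122), Bonn cortex (0.78, adjusted p = 0.203), Bonn OM (0.91, adjusted p = 0.0551), Hamburg cortex (1.0, adjusted p = 0.0671) or Hamburg IM (0.82, adjusted p = 0.0987) libraries. For the OM it ended without the Hamburg Facility (1.40, edgeR adjusted p = 0.089), and without 1 of the Aachen cortex (1.10, adjusted p = 0.0615), Aachen OM (0.89, adjusted p = 0.0731) or Bonn OM (1.28, adjusted p = 0.0529) libraries. DESeq2 also called Maf, at 0.84 for the medulla (adjusted p = 0.0359) and 1.17 for the OM (adjusted p = 0.00392).

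**Figure D2:**
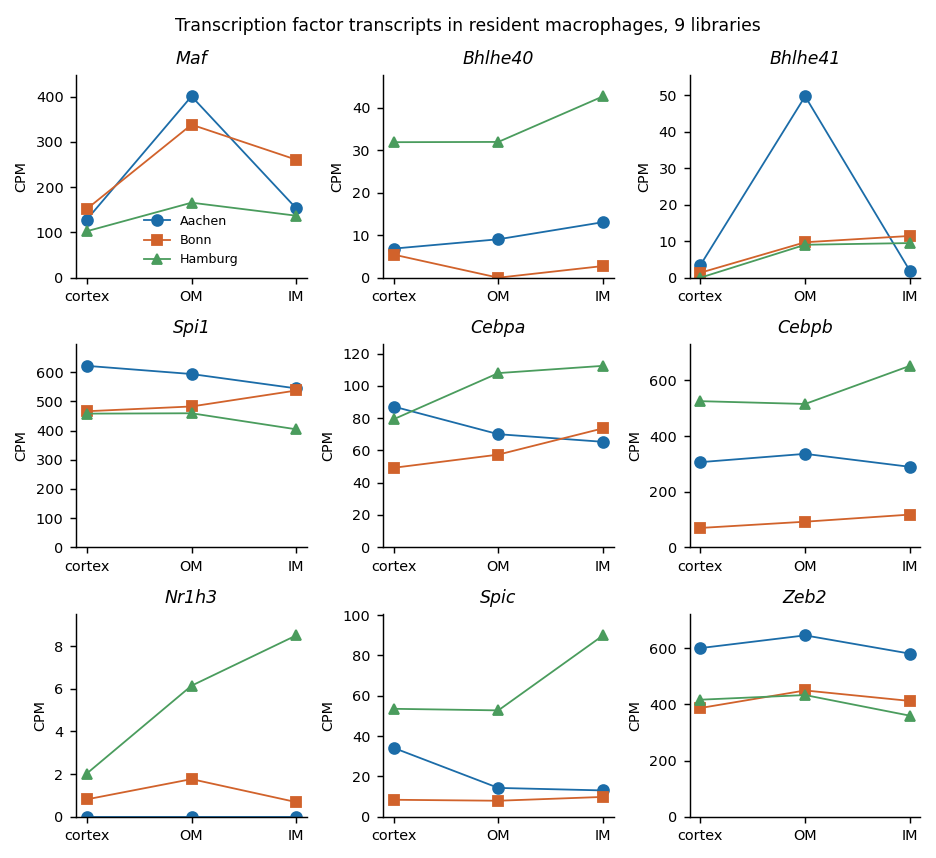
Level of each transcription factor in resident macrophages, as TMM-scaled CPM (vertical axes from 0), by compartment (horizontal axes), with 1 line per Facility. Maf rises from cortex (103 to 152) to OM (166 to 401) in every Facility, while Cebpb, Bhlhe40 and Spic separate by Facility instead.

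Bhlhe41 was low in every cortex library. The Aachen libraries held 2, 66 and 1 UMIs in cortex, OM and IM (3.42, 49.7 and 1.87 CPM), the Bonn libraries 5, 11 and 50 UMIs (1.36, 9.71 and 11.4 CPM), and the Hamburg libraries 0, 15.6 and 9.64 estimated UMIs (0, 9.02 and 9.49 CPM). The OM libraries lay above all cortex libraries, and the Aachen IM library lay among the cortex libraries. As a description only, the fitted log2 fold change was 3.25 ± 0.68 for the medulla, 3.67 ± 0.73 for the OM and 2.84 ± 0.77 for the IM. By counting error alone the OM ratio was 13.9 (95% interval 3.71 to 117) in Aachen and 7.12 (2.28 to 26.1) in Bonn, and the IM ratio was 0.558 (0.00946 to 10.7) in Aachen and 7.88 (3.16 to 25.3) in Bonn. In Hamburg the cortex library held no Bhlhe41 UMI, and set against a floor of 3 counts there the ratio was 3.02 in the OM and 3.11 in the IM. The lower 95% limits by counting, on counts rounded to whole numbers, were 2.24 and 2.17. These intervals and the floor cover counting error only.

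The mix of clusters moved with these differences. Macrophage_3, the cluster with the highest Maf and Bhlhe41 levels among myeloid cells, made up 0, 44.7 and 1.17% of the resident macrophages in cortex, OM and IM of Aachen, 7.05, 42.9 and 43.2% in Bonn, with 0, 23.0 and 15.4% in Hamburg. Without Macrophage_3 the Maf log2 fold change was 0.58 for the medulla (edgeR adjusted p = 0.162) and 0.81 for the OM (adjusted p = 0.183), and Bhlhe41 no longer passed the filter. The Bhlhe41 UMIs left were then 2, 33 and 1 in cortex, OM and IM of Aachen, 5, 3 and 25 in Bonn, with 0, 9.75 and 7.78 in Hamburg, so that each medullary library but the Aachen IM library (1.49 CPM) still stood above its cortex in plain CPM: 34.4 against 2.64 in Aachen, 5.96 and 10.3 against 1.77 in Bonn, where 3 UMIs made up the OM value, and 7.40 and 9.22 against 0 in Hamburg.

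Within single clusters no medulla contrast called a member, while the Maf level in the OM stood above that in the cortex in each Facility for Macrophage_1, Macrophage_2 and Malat+_Macrophage. In Macrophage_1 Maf stood at 112, 315 and 118 CPM in cortex, OM and IM of Aachen, at 166, 284 and 227 in Bonn, with 103, 120 and 141 in Hamburg. The log2 fold change was 0.64 ± 0.22 for the medulla (edgeR adjusted p = 0.293) and 0.85 ± 0.24 for the OM (adjusted p = 0.133). In Macrophage_2 the values were 145, 245 and 173 CPM in Aachen, 163, 264 and 124 in Bonn, with 109, 216 and 79.3 in Hamburg. Here the OM was highest in each Facility, and the IM lay above the cortex in Aachen only. The log2 fold change was 0.30 ± 0.17 for the medulla (edgeR adjusted p = 0.999), 0.77 ± 0.19 for the OM (adjusted p = 0.102) and 0.94 ± 0.21 for OM against IM (0.52 to 1.36, adjusted p = 0.0395). The last contrast was added after these levels had been seen, and its call was lost without Bonn and without Hamburg. Malat+_Macrophage had 179, 638 and 277 CPM in Aachen, 262, 453 and 406 in Bonn, with 113, 199 and 107 in Hamburg (0.74 ± 0.27 for the medulla, edgeR adjusted p = 0.794).

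Macrophage_3 itself held 640 CPM of Maf in the Aachen OM, 332, 571 and 433 in cortex, OM and IM of Bonn, and 350 and 323 in OM and IM of Hamburg. Its OM libraries were above its IM libraries in Bonn and Hamburg. No contrast was fitted for it, since only Bonn had at least 20 such cells in the cortex. No member was called between medulla and cortex in these clusters, out of 7 tested in Macrophage_1 (0.516% of 6978 genes called), 5 in Macrophage_2 (0.0200% of 4989) and 6 in Malat+_Macrophage (0.0587% of 3407). For OM against IM in Macrophage_2, 0.160% of all genes were called, and Maf was the 1 member among them.

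**Figure D3:**
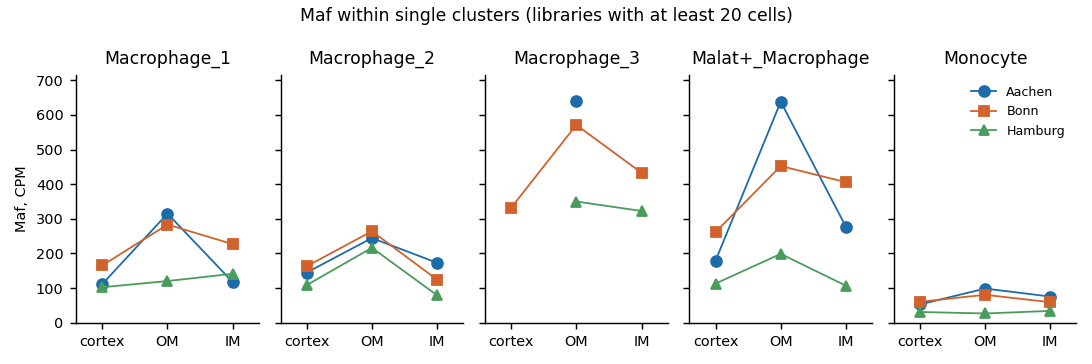
Maf level in single clusters, as TMM-scaled CPM (vertical axes), by compartment (horizontal axes), with 1 line per Facility and only libraries with at least 20 cells of the cluster. In Macrophage_2 the OM library is the highest of each Facility (216 to 264), and Monocyte stays below 100.

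In Monocyte and cDC2, the clusters fitted outside macrophages, no member was called either. In Monocyte, Maf stood at 52.9, 98.7 and 75.6 CPM in cortex, OM and IM of Aachen, 60.5, 80.7 and 59.3 in Bonn, with 31.1, 26.8 and 34.3 in Hamburg, a log2 fold change of 0.14 ± 0.32, and 0 of 6 members were called there against 0.332% of 6029 genes. In cDC2 0 of 5 members were called, against 0.304% of 4935 genes. The medulla effect on Maf was 0.73 ± 0.34 larger on the log2 scale in resident macrophages than in Monocyte (edgeR interaction, adjusted p = 0.919) and 1.77 ± 0.62 larger than in cDC2 (adjusted p = 0.634), so a difference between the cell types was not shown. In cDC2 alone Maf did not pass the low-count filter. It stood there at 22.9 CPM in the medulla and 14.8 in the cortex, higher in the medulla in 2 of 3 Facilities. The size of the cDC2 difference therefore rests on few UMIs. No member was called in either interaction, where 0.0548% of 9126 genes and 0.0221% of 9064 genes were.

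The lineage factors stayed within narrow bounds across compartments. Spi1 stood at 622, 594 and 545 CPM in cortex, OM and IM of Aachen, 467, 483 and 538 in Bonn, with 458, 460 and 405 in Hamburg, and the compartments overlapped. Its log2 fold change for the medulla was -0.02 ± 0.12, with a 95% interval of -0.28 to 0.23. Zeb2 was as flat, with 0.04 ± 0.12 (-0.21 to 0.28) and 360 to 645 CPM over the 9 libraries. These intervals are narrow enough to leave out a change as large as the Maf estimate of 0.86.

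For the C/EBP genes the bounds were wider. Cebpa ranged from 49.2 to 112 CPM over the libraries, and its medulla log2 fold change was 0.26 ± 0.16 (-0.08 to 0.59). Cebpb ranged from 69.3 to 653 CPM, with 306, 336 and 289 in cortex, OM and IM of Aachen, 69.3, 91.8 and 117 in Bonn, with 525, 515 and 653 in Hamburg, and its log2 fold change was 0.26 ± 0.14 (-0.05 to 0.56). The estimates of both members were above 0 without reaching a call.

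Bhlhe40, Spic and Nr1h3 were too sparse for a firm statement. Bhlhe40 had 6.84, 9.04 and 13.1 CPM in cortex, OM and IM of Aachen, 5.44, 0 and 2.75 in Bonn, with 31.9, 31.9 and 42.7 in Hamburg (log2 fold change -0.19 ± 0.35, interval -0.94 to 0.57). Its sign was not stable between alternatives. Spic had 34.2, 14.3 and 13.1 CPM in Aachen, 8.43, 7.95 and 9.84 in Bonn, with 53.6, 52.8 and 90.0 in Hamburg (-0.07 ± 0.25, interval -0.60 to 0.46). Nr1h3 had no UMI in the Aachen libraries, 0.816, 1.77 and 0.686 CPM in Bonn, with 2.03, 6.15 and 8.51 in Hamburg. In Hamburg these levels were 1.95, 10.6 and 8.65 estimated UMIs, and in Aachen the absence of UMIs allows up to 1.67 CPM in the OM and 4.42 CPM in the IM (3 counts of the total).

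**Figure D4:**
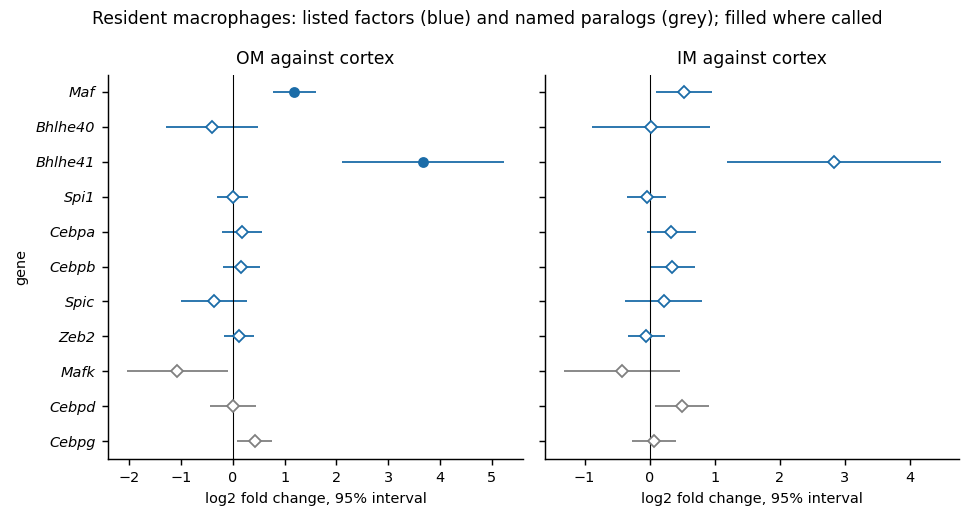
Log2 fold changes in resident macrophages with 95% intervals from edgeR (horizontal axes) for OM against cortex and IM against cortex. The listed factors that were tested are in blue and the 3 paralogs farthest from 0 for the medulla in grey. Points are filled where a gene was called. Maf (1.19) is filled for the OM and no gene is filled for the IM. The calls are descriptions, since the members were chosen with earlier results of these data known. The difference of Bhlhe41 (3.67, also filled) was itself known when it was chosen, and it passed the filter through the OM and IM libraries. The intervals of Spi1 and Zeb2 include 0.

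A pattern by Facility was plainer than the pattern by compartment for several members. Over the 20 clusters with at least 20 cells in every Facility, Bhlhe40 was highest in Hamburg in 20 of 20 and lowest in Bonn in 15, and Cebpb was highest in Hamburg in 19 and lowest in Bonn in 19. Spic was highest in Hamburg in 8 of the 9 myeloid clusters among them, and Cebpa was lowest in Aachen in 8 of 9. Maf went the other way, being lowest in Hamburg in 7 of 9. Nr1h3 was lowest in Aachen in all 20, tied where others were also at 0. These orders are by plain CPM, and that of Cebpa depended on the scaling. In the TMM-scaled levels of resident macrophages its median was lowest in Bonn (57.4 CPM, against 70.0 in Aachen and 108 in Hamburg). The immediate early and dissociation genes (14 genes such as Junb, Ier2 and Hspa1b), which respond to tissue digestion, rose from Bonn over Aachen to Hamburg in resident macrophages. They summed to 29.2 to 123 UMIs per 10000 in Bonn, 161 to 260 in Aachen and 429 to 486 in Hamburg. The median TMM-scaled levels of Cebpb, Bhlhe40, Spic and Cebpa had this order there, and those of Maf and Nr1h3 did not. For Cebpa the order did not hold by plain CPM, at 55.4 in Aachen, 74.7 in Bonn and 105.5 in Hamburg. The Facilities also differ in chemistry and in that only the Hamburg counts are not whole numbers. The part of any of these in the members' levels was not tested.

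**Figure D5:**
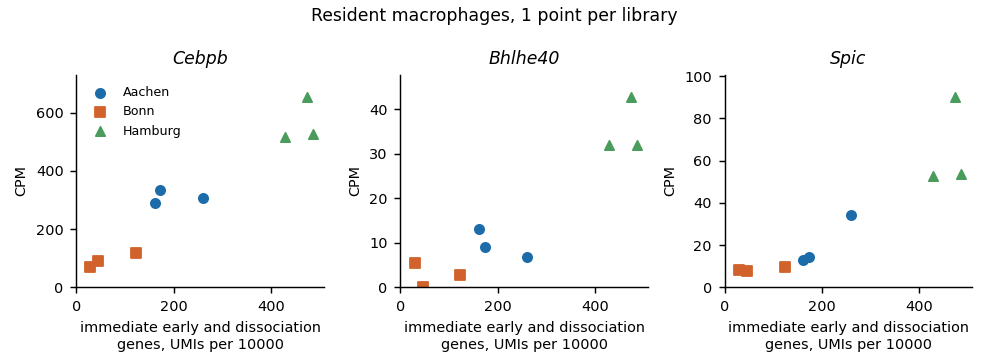
Level of members in resident macrophages (TMM-scaled CPM, vertical axes) against the summed immediate early and dissociation genes (UMIs per 10000, horizontal axes), with 1 point per library and 1 marker and colour per Facility. The Facilities form separate groups along the horizontal axis (29.2 to 123, 161 to 260 and 429 to 486), so no correlation was computed.

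Within resident macrophages the fitted values of these genes also differed by compartment. Of the 14 genes none was called in any contrast, and the fitted values were above 0 in 14 of 14 for IM against cortex (median 0.51, against 0.00 for all genes) and in 0 of 14 for OM against IM (median -0.71, against 0.01). The direction for OM against cortex, where Maf was highest, was mixed (5 of 14 above 0, median -0.11). Their summed level did not follow the fitted values of single genes in each Facility: in cortex, OM and IM it was 260.3, 173 and 161 UMIs per 10000 in Aachen, 29.2, 45.6 and 123 in Bonn, with 486, 429 and 473 in Hamburg, so that the IM was above the cortex in Bonn alone. Markers of other cells were low in these libraries. T cell markers summed to 0.125 to 2.65 UMIs per 10000 and B cell markers to 0.593 to 5.89, both highest in the Bonn cortex library, and monocyte markers to 0.741 to 6.97. Without the cells that held 2 or more lymphocyte marker UMIs, Maf was at 0.86 for the medulla (edgeR adjusted p = 0.0193) and 1.19 for the OM (adjusted p = 0.00689). The cDC2 markers summed to 4.21 to 6.76 per 10000 in cortex, 8.06 to 11.1 in OM and 4.29 to 12.2 in IM. By cluster their median over the Facilities was 12.9 in Macrophage_3, 7.45 in Macrophage_1 and 5.22 in Macrophage_2, against 23.4 in cDC2. The part of these markers in the result was not tested.

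None of the relatives of the members was called. Of 9 paralogs 7 were tested for the medulla, the OM and the IM, and 3 of the 7 had a fitted value above 0 for the medulla. Mafk, a small Maf protein without an activation domain, was at -0.75 ± 0.37 (edgeR adjusted p = 0.523), Cebpd at 0.25 ± 0.17 and Cebpg at 0.24 ± 0.14. Of 56 other transcription factors 53 were tested and none was called (median 0.04, against 0.01 over all genes). Farthest from 0 in that list were the Notch target Hes1 at -0.71 ± 0.20 (edgeR adjusted p = 0.134), the interferon factor Irf7 at -0.69 ± 0.22 (adjusted p = 0.199) and the AP-1 member Junb at 0.67 ± 0.33 (adjusted p = 0.519).

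Genes that lie downstream of the members, by general knowledge, were counted in 3 lists. Of 11 LXR targets 9 were tested, and 3 were called higher in the medulla and 3 in the OM, with a median of 0.09 for the medulla (over all genes 1.24% and 0.852% were called, with a median of 0.01 for the medulla); Apoe and Pltp were known from earlier results of these data. Those called were Abca1, the cholesterol exporter (medulla 1.31 ± 0.24, edgeR adjusted p = 0.0176), the phospholipid transfer protein Pltp (1.20 ± 0.23, adjusted p = 0.0217) and the apolipoprotein Apoe (OM 1.02 ± 0.15, adjusted p = 0.00942). Of the 9 tested targets, 5 had a fitted value above 0 for the medulla and 4 for the OM, where the median was -0.01 (0.02 for all genes). The member Nr1h3 was itself too rare to be tested. Its paralog Nr1h2 was tested and stood at -0.10 ± 0.15 for the medulla (edgeR adjusted p = 0.921).

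Of 10 genes linked to PU.1 or C/EBP all were tested, and 5 had a fitted value above 0 for the medulla (median 0.07, against 0.01 for all genes). Lyz2, lysozyme, was the 1 called, in the medulla and in the OM (OM 1.73 ± 0.35, edgeR adjusted p = 0.0359). Over all genes 1.24% were called in the medulla and 0.852% in the OM. Cd14 stood at 0.82 ± 0.20 for the medulla (edgeR adjusted p = 0.0679) and Tlr4 at 0.50 ± 0.17 (adjusted p = 0.218). Of 8 genes of heme and iron recycling, the process in which SPI-C acts in the spleen, 7 were tested and none was called (median -0.22 for the medulla). The iron exporter Slc40a1 was at -1.56 ± 0.42 (edgeR adjusted p = 0.104) with a higher level in the medulla in 1 of 3 Facilities, the transporter Slc11a1 at -0.64 ± 0.16 (adjusted p = 0.079) with lower levels in 3 of 3 Facilities, and the ferritin chain Fth1 at -0.33 ± 0.11 (adjusted p = 0.198). Several of these genes were known from earlier results of the same data, and these counts describe the lists only.

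Finally, the genes whose levels over the clusters were most like each member's were listed over 20 clusters and 8784 genes, by Pearson's r of log2(CPM + 1). The clusters share libraries and depth, so these values describe the table. For Spi1 they were Marcks (0.978), Pirb (0.976) and Nfam1 (0.959), for Cebpa Pik3r6 (0.982), Parvb (0.974) and Tifab (0.972), and for Spic Trem2 (0.933), Cib2 (0.922) and Msr1 (0.921). Maf had no gene as close, with Akirin2 at 0.862 and Zbtb16 and Wdr47 at 0.833, and neither had Bhlhe41, with Snx8 (0.864), Srpk3 (0.828) and Zdhhc14 (0.807). The list for Zeb2 was led by Zeb2os (0.883), which overlaps it on the opposite strand, followed by Ctsa (0.881) and Cybb (0.878). Bhlhe40 was nearest to Acot7 (0.895), Ppp2ca (0.884) and Tle3 (0.859), Cebpb to Slc16a3 (0.907), Osm (0.866) and Prdx5 (0.861), and Nr1h3 to C3 (0.896), Zfyve9 (0.87) and Nupr1 (0.856). Among the members themselves Cebpa and Spic were the pair most alike (0.86), followed by Spi1 and Cebpa (0.824), and Bhlhe40 and Spic the least alike (-0.659).

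By the GENCODE annotation of GRCm38, the 9 genes lie on 5 chromosomes. Maf is at chr8:115682942-115707794 on the minus strand and Zeb2 at chr2:44983632-45117395 on the minus strand, Spi1 at chr2:91082390-91115756 on the plus strand and Nr1h3 close to it at chr2:91184061-91202834 on the minus strand. Cebpb is at chr2:167688915-167690418 on the plus strand, Cebpa at chr7:35119293-35121928 on the plus strand and Spic at chr10:88674772-88685015 on the minus strand. Bhlhe40 at chr6:108660629-108666925, on the plus strand, and Bhlhe41 at chr6:145858243-145865558, on the minus strand, share a chromosome. A gene on the opposite strand overlaps 7 of the 9, among them Tmem189 for Cebpb and Gm15655 for Maf. Whether the counting used the strand is not given in the sources used here, so reads of such pairs may not be told apart. On the same strand Gm13783 overlaps Nr1h3 and Mir5129 overlaps Zeb2, where the strand could not part the reads.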

How the data were processed

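The authors mapped the reads with Cell Ranger to mm10 and filtered, integrated and clustered the cells with Seurat, as named in the submitters' processing notes and the paper. The deposited table holds expected counts of UMIs per cell and gene, not scaled, with the compartment, cluster and Facility of each cell; values are whole numbers in Aachen and Bonn, whereas 0.118% of the nonzero Hamburg values are whole, by a step not given in the sources used here. No doublet removal or correction for free RNA was added, and no deposited column of values was left unused.

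Counts were summed per library and cell class, rounded, filtered with filterByExpr (minimum count 10), scaled by TMM and tested with the quasi-likelihood functions glmQLFit and glmQLFTest (edgeR 4.0.16, run in R 4.3.3) on Facility plus compartment. DESeq2 1.42.0 was an alternative. Cluster contrasts used libraries with at least 20 cells. Summaries used Python 3.11.15, numpy 2.4.6, pandas 2.3.3 and scipy 1.17.1. Libraries were paired by the Facility named in the table. Deviations from the compartment means correlated at 0.815 to 0.914 within a Facility (9 pairs) and at -0.795 to 0.475 between Facilities (18 pairs, 8687 genes). Such deviations cancel out over the Facilities, which lowers the values between Facilities by construction. Scripts were tested on simulated counts.

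The members and all gene lists were chosen with earlier results of these data known. All members are named. From each other list, the genes called in resident macrophages are named or, where fewer than 3 were, those with the largest changes up to 3. Nr1h2 is named besides, as the paralog of Nr1h3. For each member the 3 genes most like it over clusters are named, among genes with at least 500 UMIs. Results of 1 gene of these lists, and of the list named for it, are not reported here. Positions and exons are from GENCODE, promoter windows from RefSeq.

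Alternatives were other scalings, no or a stricter low-count filter (50 counts in 3 libraries), no block, leaving out each Facility or library, thinning to 500 UMIs, other cluster sets, unrounded sums and at least 10 cells per library. The Macrophage_2 contrast of OM against IM was added after seeing the data.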

Additional observations from a re-analysis of the deposited data

How the results depend on the processing

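For resident macrophages 2 members were under the threshold in the medulla and 2 in the OM, of which Maf is 1 and the other, Bhlhe41, was chosen with its difference known and entered through the OM and IM libraries, so these counts are descriptions. With the stricter filter, with no replicate block and without Macrophage_3 these counts were 0 and 0, with cells thinned to 500 UMIs 0 and 1, and with 1 Facility or library left out 0 to 2 and 0 to 2. In the IM the 0 members called became 1 with no low-count filter and ranged from 0 to 1 with 1 Facility or library left out, and for OM against IM the 0 became 1 with no low-count filter. The 1 member called for OM against IM in Macrophage_2 became 0 with no replicate block, and 0 to 1 with 1 Facility left out. With no replicate block edgeR called no gene in the medulla or the OM of resident macrophages, and the Maf log2 fold change was then 0.88 for the medulla (adjusted p = 1) and 1.24 for the OM. With the stricter filter Maf was at 0.87 (adjusted p = 0.0651) and 1.20 (adjusted p = 0.0522). The calls over all genes went from 108 in the medulla to 48 with DESeq2, 382 with no filter, 24 with the stricter filter, 39 thinned, 6 without Macrophage_3 and 6 to 262 with 1 Facility or library left out, and from 74 in the OM to 49, 330, 5, 45, 0 and 5 to 139. Bhlhe41 was above 0 in the medulla in the 20 alternatives where it passed the filter (2.59 to 3.65). Members without a call changed sign in the medulla. Bhlhe40 was at -0.673 to 0.279 with 1 Facility or library left out, 0.155 with no replicate block, 1.87 thinned, 0.0473 without Macrophage_3, 0.0477 without Isg+_Macrophage and 0.336 without cells of lymphocyte markers. Spi1 was at 0.00909 without Macrophage_3 and at -0.104 to 0.0188 with 1 Facility or library left out, Cebpa at -0.0414 thinned, Spic at 0.0099 without Macrophage_3 and at -0.527 to 0.213 with 1 left out, and Zeb2 at -0.0161 without cells of lymphocyte markers and at -0.0241 to 0.0952 with 1 left out. Bhlhe41 for OM against IM ranged from -0.158 to 1.6 with 1 left out, below 0 without Aachen, its OM library (-0.0599) or its IM library (-0.0898). The cause of these changes was not tested. The median over all genes moved by under 0.1 with every scaling. Macrophage_3 could not be compared. Depth limits Nr1h3, Spic, Bhlhe40 and Bhlhe41.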
